A study of Mus musculus with 9 samples.

Results

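The miR-297, miR-466, miR-467 and miR-669 families are rodent miRNAs encoded largely by a repeat-rich cluster in an intron of Sfmbt2, a Polycomb group gene. Members were taken by name alone, as every entry of the miRNA table whose name begins with one of these family numbers followed by a letter or a hyphen. This gave 27 of 722 entries, with 2 members of miR-297, 8 of miR-466, 6 of miR-467 and 11 of miR-669. The counts come from exosomes released by mouse liver pieces, in 9 libraries of 3 groups with 3 libraries each, which the study counts as separate mice. Flox chow mice carried floxed Hsp90β (Hsp90ab1; Hsp90β fl/fl) without Cre and ate normal chow. Flox HFFC mice had the same alleles and ate the HFFC diet, rich in fat, fructose and cholesterol. KO HFFC mice carried the floxed alleles with Cre driven by the Albumin promoter and ate the HFFC diet. The study describes this as a deletion of Hsp90β in hepatocytes. Whether all other liver cells kept Hsp90β could not be checked here. Mice of all groups thus shared the floxed alleles, and the labels give no age. The questions addressed were which miRNAs differ with the diet and which differ with hepatocyte Hsp90β.

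A miRNA is cut from a hairpin RNA and guides Argonaute proteins to mRNAs that pair with its seed, the bases from the second to the eighth. Each hairpin can give a miRNA from its 5p arm and another from its 3p arm. In mice, Sfmbt2 is an imprinted gene expressed from the paternal allele in early embryonic and extraembryonic tissue, and its intronic miRNAs were first known from embryonic stem cells and placenta. Many of them are built from UG and CA repeats, so family members resemble each other and short reads may match several hairpins.

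RefSeq on GRCm38 lists 81 hairpin genes of these families, with names that fall into 44 lettered miRNAs. Of the 81, 71 lay in introns of Sfmbt2 on the same strand, within chr2:10466663-10518279. This cluster spans 51.6 kb and starts 96.2 kb from the start of the gene. The other 10 hairpins lay elsewhere. The coordinates of all 81 were the same in GENCODE M21. All 27 members could be matched to a hairpin by name, and 24 of them had hairpins in Sfmbt2 alone. miR-297a-5p and miR-466f-3p had hairpins both in Sfmbt2 and elsewhere. The most abundant member, miR-466i-5p, had none in Sfmbt2. Its single hairpin lies at chr13:17747473-17747593 on the plus strand, in an intron of Cdk13, which runs on the opposite strand.

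None of the 27 mature sequences could be matched in the RefSeq sequence table used here (GRCm38.p6). That table holds 8 other mature miRNAs of the families, all from hairpins outside Sfmbt2 and none with an entry in the count table. They are shown because they display UG or CA repeats, and because miR-466i-3p is the opposite arm of the hairpin that gives miR-466i-5p. Each is written 5′ to 3′ with the seed in capitals.
miR-466i-3p: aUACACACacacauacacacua
miR-466q: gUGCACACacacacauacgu
miR-467f: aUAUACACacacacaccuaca
miR-467g: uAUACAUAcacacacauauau
miR-466k: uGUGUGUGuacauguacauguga
miR-466j: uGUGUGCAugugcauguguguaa
miR-467h: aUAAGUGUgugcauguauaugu
miR-669n: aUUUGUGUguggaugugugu

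The 8 sequences were 20 to 23 bases long and had 8 different seeds, so even those with the same family number did not share a seed. The first 4 held the run ACACAC and the last 4 the run UGUGUG, read on the mature strand only. Either run occurred in 1.86% of the 1671 RefSeq mature miRNAs outside the families. A single hairpin of a counted miRNA was in the same table, the copy of miR-297a outside Sfmbt2 (Mir297-1, intergenic, chr7:10958437-10958512, minus strand). It is shown for its own UG-rich arm, with the run UGUGUG in capitals.
Mir297-1: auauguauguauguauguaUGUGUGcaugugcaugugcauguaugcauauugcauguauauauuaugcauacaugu

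The libraries held 218256 to 681286 miRNA counts, which made up 0.849% to 2.61% of the library tags the authors scaled by. Flox chow replicate 3 was the shallowest library and flox chow replicate 2 the deepest. A count of 0 allowed up to 3 counts, or 4.40 to 13.7 per 1e+06 miRNA counts. The hepatocyte miRNAs miR-122-5p, miR-192-5p, miR-194-5p, miR-148a-3p and miR-802-5p together made 2.455e+05 to 4.198e+05 per 1e+06 in flox chow, 2.497e+05 to 3.734e+05 for flox HFFC and 2.81e+05 to 3.515e+05 for KO HFFC, so the liver label held. Deletion of Hsp90β could not be checked in a miRNA table. KO HFFC replicates 2 and 3 stood apart in miR-204-5p, miR-205-5p and miR-200c-3p, and flox chow replicate 3 in muscle miRNAs.

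In liver exosomes the families were scarce. The 27 members summed to 2270 of 3873973 counts, or 0.0586%. A single member, miR-466i-5p, held 1606 of these counts (70.7%) and ranked 90 among the 722 entries. The next, miR-467a-5p, held 189 counts (8.33%) and ranked 197. A further 14 members had fewer than 10 counts over all 9 libraries, 9 were found in a single library, and 4 were found in every library (miR-466i-5p, miR-467a-5p, miR-467e-5p and miR-467c-5p).

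**Figure D1:**
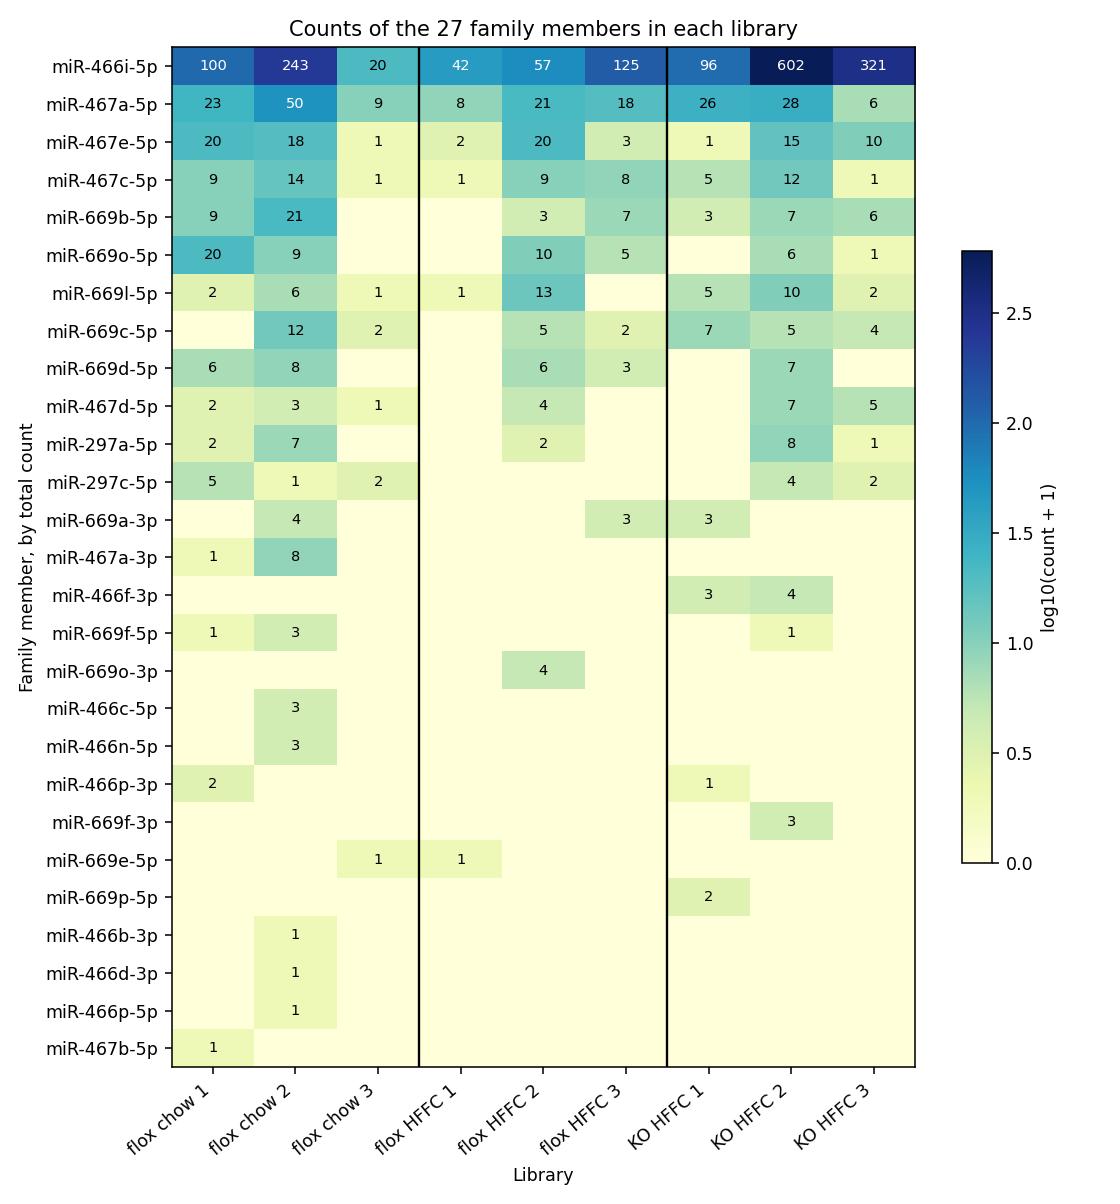
Counts of each of the 27 members (vertical axis, by total count) in each of the 9 libraries (horizontal axis), with the number printed in each cell, empty cells at 0 and colour as log10(count + 1). miR-466i-5p reaches 602 counts in KO HFFC replicate 2, whereas the lower rows are mostly empty.

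Counts came from the 5p arms. The 19 members from 5p arms summed to 2232 counts and the 8 from 3p arms to 38. With miR-466i-5p set aside, 3p arms made 5.72% of the remaining 664 counts. Where both arms of a hairpin had an entry, the 5p arm led in miR-467a (189 counts against 9), miR-669o (51 against 4) and miR-669f (5 against 3), and the 3p arm in miR-466p (3 against 1). miR-466i-3p, the sequence printed first above, had no entry, and the table lists only entries with at least 1 count.

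Within the cluster, the number of hairpin copies and the counts under each name did not follow each other closely. How reads that match several hairpins were counted is not known. This may bear on miRNAs with many copies, and also on repeat-like miRNAs with a single hairpin. miR-466i-5p has a single hairpin, but the opposite arm of that hairpin, miR-466i-3p, holds the run ACACAC. The sequence of miR-466i-5p itself could not be checked. miR-669a has 12 hairpins and was seen as 10 counts of its 3p arm, and miR-466b has 8 hairpins and was seen as 1 count. miR-467a has 10 hairpins and led the cluster. The single-copy miR-467e (90 counts), miR-467c (60), miR-669b (56) and miR-669o (51) came next. Altogether 23 of the 44 lettered miRNAs had an entry and 21 had none. The 24 members with hairpins in Sfmbt2 alone, matched by name, held 637 counts, 28.1% of the family total. By name, Sfmbt2 family thus describes most members but a minority of the counts. Where the reads themselves came from could not be checked, since reads may match several hairpins. A further 48 miRNA genes that GENCODE places within Sfmbt2 carry other names and were not counted here.

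**Figure D2:**
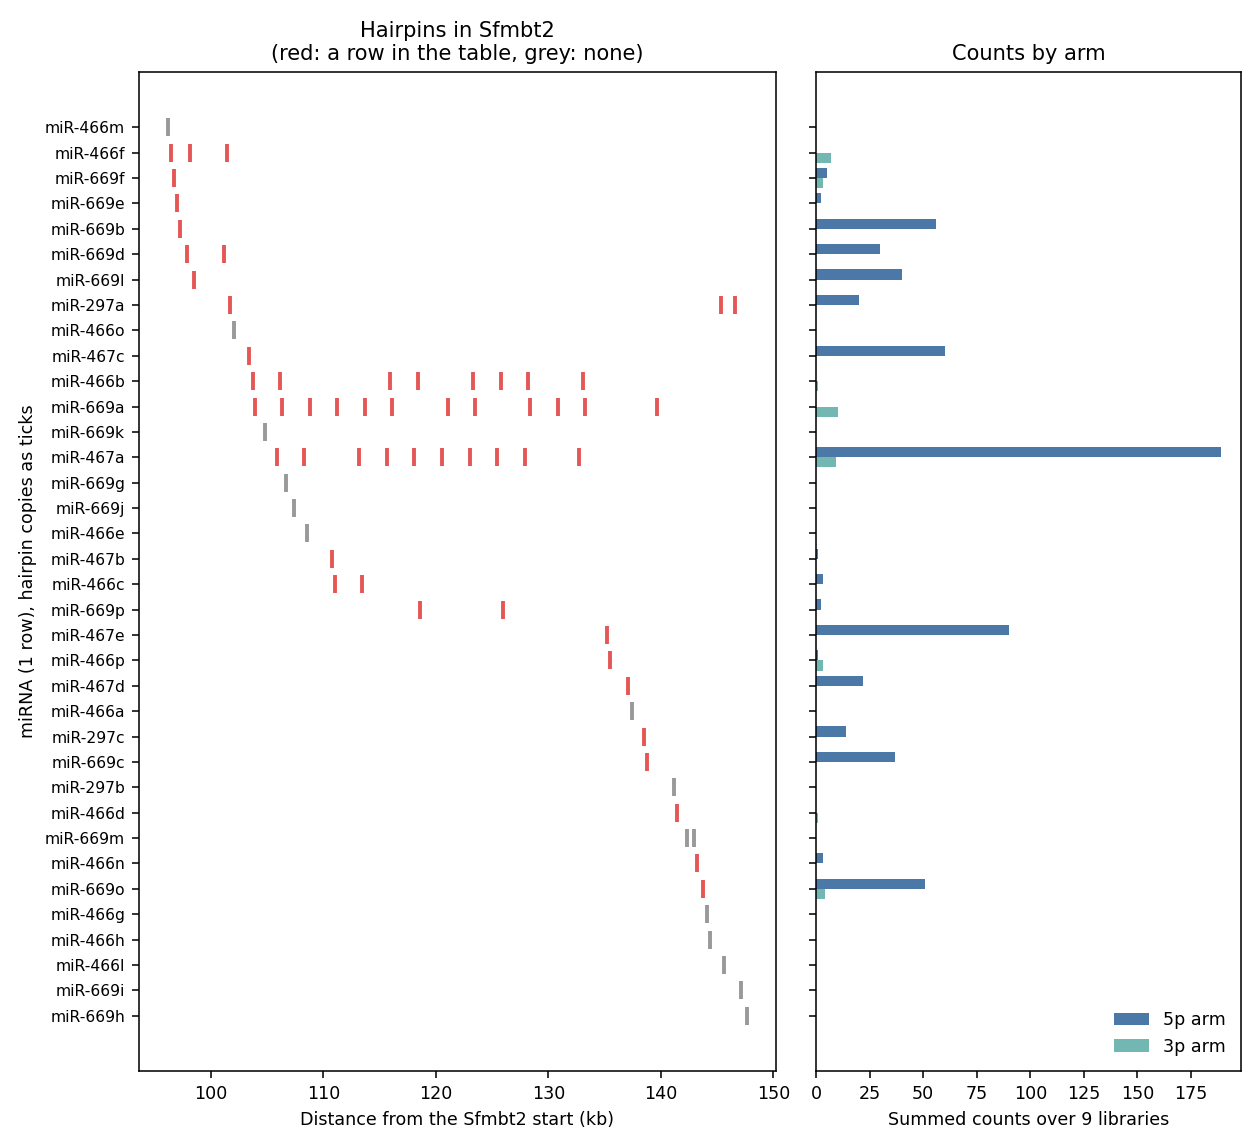
Left, the 71 hairpins in Sfmbt2 by distance from the start of the gene in kb, with a row for each lettered miRNA and a tick for each hairpin copy (red with an entry in the table, grey without). Right, counts summed over 9 libraries for the 5p arm and the 3p arm. miR-467a-5p reaches 189 counts, and the 12 hairpins of miR-669a gave 10 counts.

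Library by library, the summed family share was 418.2, 610.6 and 174.1 per 1e+06 miRNA counts in flox chow. It was 187.3, 254.7 and 431.3 for flox HFFC, and 359.5, 1571 and 1171 for KO HFFC. KO HFFC replicates 2 and 3 were above every other library, whereas KO HFFC replicate 1 lay inside the range of the flox groups. The 95% Wilson intervals of the former were 1460 to 1690 and 1056 to 1298, and that of the highest flox library was 554.7 to 672.2, all of which cover counting error only. Group means were 401 ± 218.8 for flox chow, 291.1 ± 126 for flox HFFC and 1034 ± 617.3 for KO HFFC (SD, n = 3). The log2 ratio of mean shares was -0.46 for flox HFFC against flox chow, 1.83 for KO HFFC against flox HFFC and 1.37 for KO HFFC against flox chow, beside a within-group SD of 0.91 on the log2 scale. No test was run on the sum.

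The sum without miR-466i-5p, which is also the sum of the 26 members with at least 1 hairpin in Sfmbt2, was different. It was 212.2, 253.9 and 82.47 per 1e+06 in flox chow, 44.26, 160.4 and 121.4 for flox HFFC, and 132.4, 255.6 and 123.9 for KO HFFC. The 3 groups overlapped in each pairing. Their means were 182.9 ± 89.4, 108.7 ± 59.1 and 170.7 ± 73.7 (SD, n = 3). The log2 ratios were then -0.75 for the diet, 0.65 for KO HFFC against flox HFFC and -0.10 for KO HFFC against flox chow. KO HFFC replicate 1 alone, with the 2 highest libraries left out after seeing the data, gave a ratio of the full sum of 0.30 against flox HFFC and -0.16 against flox chow, which restates the library values above.

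**Figure D3:**
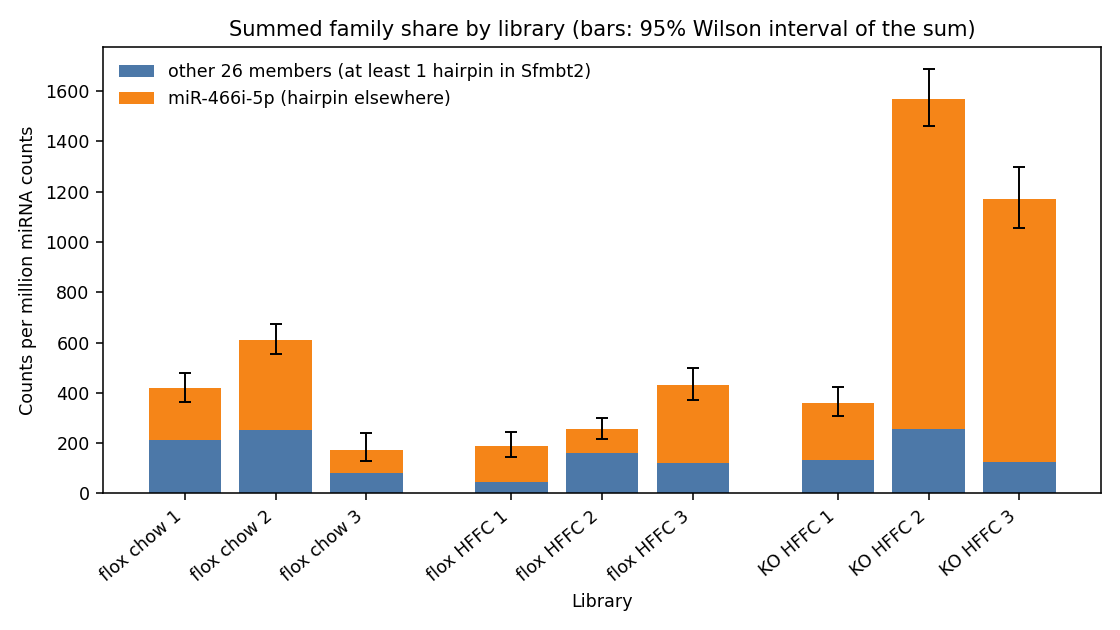
Family counts per 1e+06 miRNA counts in each library, stacked as miR-466i-5p (orange) and the other 26 members (blue), with 95% Wilson intervals of the sum. KO HFFC replicates 2 and 3 reach 1571 and 1171, and the blue part stays between 44.26 and 255.6 in the 9 libraries.

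By family number, miR-466 was almost wholly miR-466i-5p. Its other 7 members summed to 11 counts in flox chow, 0 for flox HFFC and 8 for KO HFFC. miR-467 stood at 102.3 ± 42.3 per 1e+06 in flox chow, 66.21 ± 26.4 for flox HFFC and 94.3 ± 35.7 for KO HFFC (SD, n = 3). miR-669 stood at 63.03 ± 39.4, 41.39 ± 31.3 and 58.3 ± 23.4 in the same order. miR-297 was near the counting floor, with 17, 2 and 15 counts per group. For miR-467 and miR-669 the differences between means were smaller than the summed SDs of the groups compared, and no test was run on these sums. Flox chow libraries together showed 23 of the 27 members, flox HFFC libraries 14 and KO HFFC libraries 18. Per library the number ran from 6 in flox HFFC replicate 1 (293708 miRNA counts) to 20 in flox chow replicate 2 (681286 miRNA counts). These were 22.2% and 74.1% of the members, beside 51.9% and 63.2% of the other entries in the same libraries. The number did not follow depth throughout. Flox HFFC replicate 2 showed 12 members at 604672 miRNA counts and KO HFFC replicate 2 showed 15 at 457678.

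Only 3 members passed the filter on low counts and were tested, miR-466i-5p, miR-467a-5p and miR-467e-5p. In edgeR's quasi-likelihood test over 248 entries, 0 of the 3 had an adjusted p below 0.05 in any of the 3 comparisons. The background was 0.00% of the 248 entries in each comparison. At an unadjusted p below 0.05 the members numbered 0 for the diet (background 4.44%), 1 for KO HFFC against flox HFFC (8.06%) and 1 for KO HFFC against flox chow (12.9%). Both of these were miR-466i-5p. DESeq2 called 0 of the members in each comparison, and limma-voom 0. These hits are not independent, since they rest on the same 3 KO HFFC libraries. The diet comparison likewise shares flox HFFC with the one and flox chow with the other.

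miR-466i-5p was the only member that stood out in level. Its counts were 100, 243 and 20 for flox chow, 42, 57 and 125 for flox HFFC, and 96, 602 and 321 for KO HFFC. As CPM (counts per 1e+06 tested counts, TMM-scaled), it stood at 219, 328 and 113 for flox chow, 160, 102 and 304 for flox HFFC, and 209, 1.12e+03 and 958 for KO HFFC. KO HFFC replicates 2 and 3 were above all flox libraries, and KO HFFC replicate 1 lay among them, so the groups overlapped in every comparison. KO HFFC against flox chow gave a log2 fold change of 1.78 ± 0.66 (SE, 95% interval 0.48 to 3.08, edgeR adjusted p = 0.345). Against flox HFFC it was 2.02 ± 0.67 (0.71 to 3.33, edgeR adjusted p = 0.293), the 9th lowest p among 248 entries. The diet comparison gave -0.24 ± 0.65 (-1.51 to 1.03, edgeR adjusted p = 0.985). Unlike the p-values, the intervals are not adjusted over the 248 entries.

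The call on miR-466i-5p depended on the fit. Without any filter on low counts, edgeR over the 722 entries gave an adjusted p of 0.0133 against flox HFFC and 0.0465 against flox chow. A looser filter (at least 5 counts in 3 libraries) left the edgeR adjusted p at 0.3 and 0.349, and DESeq2 gave adjusted p of 0.202 and 0.471. The pooled Poisson test, which ignores the spread between mice, called it in both, among 162 of the 248 tested entries in each. KO HFFC replicates 2 and 3 carried the difference, as their values show. Leaving both out was chosen after seeing the data, removes the highest libraries and keeps 1 KO HFFC library, so it says nothing beyond those values. The log2 fold change was then 0.19 against flox HFFC and -0.03 against flox chow.

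In the same libraries, the ratio of miR-466i-5p to miR-467a-5p counts was 21.5 and 53.5 in KO HFFC replicates 2 and 3, the latter on 6 counts of miR-467a-5p. It was 2.22 to 6.94 in the 6 flox libraries and 3.69 in KO HFFC replicate 1. miR-466i-5p made 83.7% and 89.4% of the family counts in these KO HFFC libraries, against 37% to 76.4% in the other 7. The most abundant member and the leading member of the Sfmbt2 cluster therefore did not keep a fixed ratio across libraries.

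The KO HFFC libraries with high miR-466i-5p also had high counts of 3 epithelial miRNAs, but not of the other 4 on the list. The list of 7 (miR-200a-3p, miR-200b-3p, miR-200c-3p, miR-141-3p, miR-429-3p, miR-204-5p and miR-205-5p) was present in full. It summed to 586.5 to 1107 per 1e+06 in flox chow, 584.9 to 2338 for flox HFFC and 2218 to 9598 for KO HFFC. miR-204-5p had 1125 and 2105 counts in KO HFFC replicates 2 and 3, against 1 to 5 in each of the other 7 libraries. miR-205-5p had 101 and 161 counts in these libraries, against 0 to 7 elsewhere, and miR-200c-3p had 59 and 117, against 0 to 12. miR-429-3p did not set them apart, with 464 and 474 counts against 768 in KO HFFC replicate 1 and 1182 in flox HFFC replicate 2. Nor did miR-200a-3p (107 and 57, against 104 and 167 in the same libraries), miR-200b-3p or miR-141-3p. In the comparison of KO HFFC with flox HFFC, the log2 fold change was 0.17 ± 0.55 for miR-429-3p and 0.05 ± 0.49 for miR-200a-3p (SE, edgeR adjusted p = 0.954 and 0.971). Against flox chow, all KO HFFC libraries were higher in miR-429-3p (1.07 ± 0.56) and miR-141-3p (1.45 ± 0.63, SE, edgeR adjusted p = 0.5085 and 0.35). There 17.7% of tested entries did not overlap. miR-200a-3p (0.12 ± 0.49) and miR-200b-3p (-0.17 ± 0.84) overlapped (SE, edgeR adjusted p = 0.925 for each). The part of these epithelial miRNAs in the level of miR-466i-5p was not tested, and more vesicles from a cell type cannot be told apart from more of the miRNA per vesicle.

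The leading miRNA of the cluster, miR-467a-5p, had 23, 50 and 9 counts in flox chow, 8, 21 and 18 for flox HFFC, and 26, 28 and 6 for KO HFFC. As CPM it stood at 50.3, 67.6 and 50.9 for flox chow, 30.4, 37.6 and 43.7 for flox HFFC, and 56.7, 52.2 and 17.9 for KO HFFC. All 3 flox HFFC libraries were below all 3 flox chow libraries, while KO HFFC libraries overlapped both groups. The log2 fold change for the diet was -0.59 ± 0.58 (SE, 95% interval -1.73 to 0.54, edgeR adjusted p = 0.985). KO HFFC differed from flox HFFC by 0.19 ± 0.58 (-0.95 to 1.33, edgeR adjusted p = 0.954) and from flox chow by -0.41 ± 0.57 (-1.53 to 0.72, edgeR adjusted p = 0.851). These intervals allow changes of either sign.

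miR-467e-5p, encoded once in the cluster, had 20, 18 and 1 counts in flox chow, 2, 20 and 3 for flox HFFC, and 1, 15 and 10 for KO HFFC. As CPM it ranged from 5.66 to 43.7 for flox chow, 7.29 to 35.8 for flox HFFC and 2.18 to 29.8 for KO HFFC. Libraries within each group thus differed more than the groups did. The log2 fold changes were -0.54 ± 1.03 for the diet, 0.16 ± 1.05 for KO HFFC against flox HFFC and -0.38 ± 1.03 for KO HFFC against flox chow (SE, edgeR adjusted p = 0.985, 0.954 and 0.925). The sign changed in some alternative fits of each comparison.

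**Figure D4:**
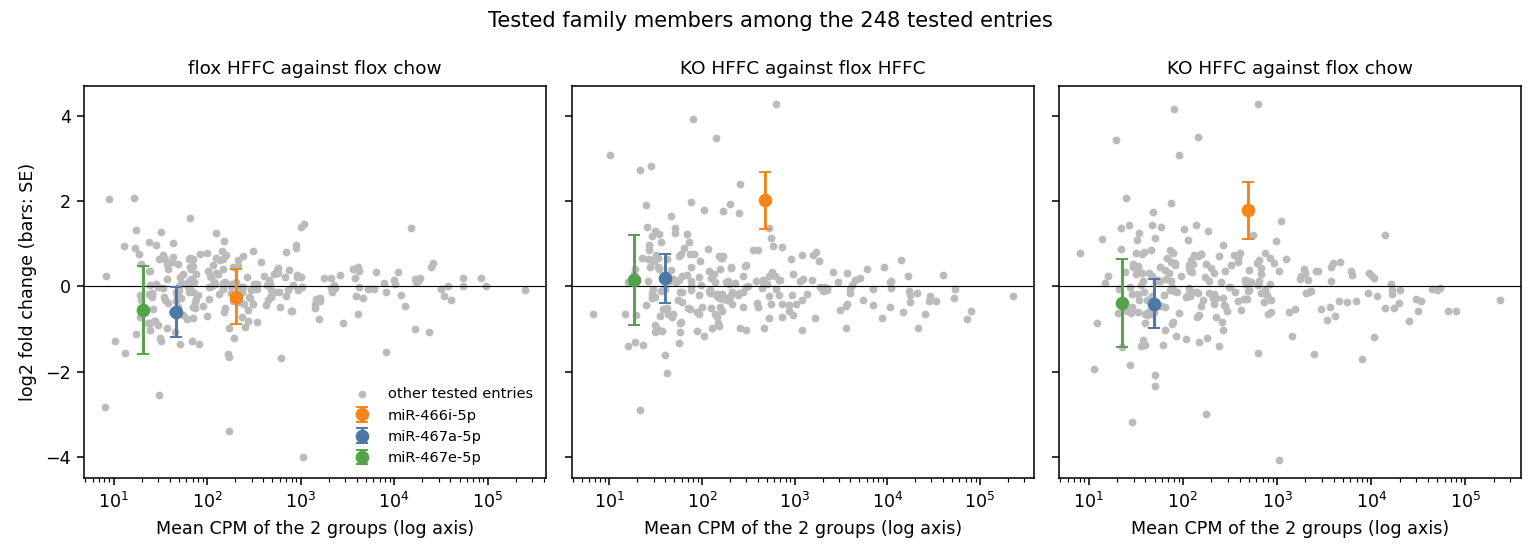
log2 fold change against mean CPM (log axis) of the 248 tested entries in 3 comparisons, with the 3 tested members in colour and bars of 1 SE. miR-466i-5p lies at 2.02 and 1.78 in the comparisons of KO HFFC, and miR-467a-5p and miR-467e-5p lie between -0.59 and 0.19.

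The remaining members among the 10 of highest total were too low to test. miR-467c-5p had 9, 14 and 1 counts in flox chow, 1, 9 and 8 for flox HFFC, and 5, 12 and 1 for KO HFFC. miR-467d-5p had 2, 3 and 1 counts, then 0, 4 and 0, then 0, 7 and 5. Both miR-467 members overlapped between the groups, and miR-467c-5p was seen in every library.

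Of the miR-669 members, miR-669b-5p had 9, 21 and 0 counts in flox chow, 0, 3 and 7 for flox HFFC, and 3, 7 and 6 for KO HFFC. miR-669o-5p had 20, 9 and 0, then 0, 10 and 5, then 0, 6 and 1 in the same order. Each had libraries at 0 and at its highest level within flox chow. miR-669l-5p had 2, 6 and 1 counts in flox chow, 1, 13 and 0 for flox HFFC, and 5, 10 and 2 for KO HFFC. miR-669d-5p had 6, 8 and 0, then 0, 6 and 3, then 0, 7 and 0. For miR-669b-5p, miR-669o-5p, miR-669l-5p and miR-669d-5p, the spread within a group covered the differences between the groups.

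miR-669c-5p had 0, 12 and 2 counts in flox chow, 0, 5 and 2 for flox HFFC, and 7, 5 and 4 for KO HFFC. As CPM it stood at 15.3, 9.33 and 11.9 for KO HFFC, against 0, 8.95 and 4.86 for flox HFFC. The KO HFFC libraries were all above the flox HFFC libraries, by a narrow margin, but overlapped with flox chow. With 37 counts in total, it failed the filter and was not tested.

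Over all 27 members, 2 did not overlap in TMM-scaled CPM between flox HFFC and flox chow (background 5.96% of the 722 entries). Both were lower in flox HFFC (3.05% in that direction). They were miR-467a-5p, which did overlap as a share of miRNA counts without TMM scaling, and miR-297c-5p. The latter, named after its values were seen, had 5, 1 and 2 counts in flox chow, 0 in each flox HFFC library, and 0, 4 and 2 for KO HFFC. Flox chow replicate 1 held 5 of the 8 flox chow counts. miR-669c-5p was the only member that did not overlap between KO HFFC and flox HFFC (background 9.28%, and 5.96% for the higher direction), and 0 members did so between KO HFFC and flox chow (10.4%). Among tested entries alone, the backgrounds were 8.47%, 14.1% and 17.7%, and 1, 0 and 0 of the 3 tested members did not overlap.

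The other 16 members had 1 to 20 counts each in total, the highest being miR-297a-5p. Within flox chow, replicate 2 alone held the 3 counts each of miR-466c-5p and miR-466n-5p. miR-466f-3p, which has hairpins in Sfmbt2 and elsewhere, was seen in KO HFFC replicates 1 and 2 alone, with 3 and 4 counts. At this depth, differences between groups in such members were not detectable.

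miRNAs of other imprinted loci were set beside the family. Of 51 entries in the table, 5 passed the filter, and edgeR called 0 of them in each comparison. At an unadjusted p below 0.05, where the background was 4.44%, 8.06% and 12.9% of the 248 entries, they numbered 1, 1 and 0. Their median log2 fold change was 0.18 for the diet, -0.24 for KO HFFC against flox HFFC and 0.10 for KO HFFC against flox chow. Those of the 3 tested family members were -0.54, 0.19 and -0.38, and those of all 248 entries -0.02, -0.03 and -0.05. Summed over the 51 entries, the imprinted miRNAs stood at 801.8 to 1598 per 1e+06 in flox chow, 1368 to 2011 for flox HFFC and 1477 to 1833 for KO HFFC, so these groups overlapped as well. miRNAs of pluripotent cells (the miR-290 to miR-295 cluster), which share with the family a known place in embryonic stem cells, had 5 entries and 3 to 13 counts per library.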

How the data were processed

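Small RNA of liver exosomes was counted per mature miRNA by the authors, who deposited whole-number counts for 722 entries, RPM values (count per 1e+06 library tags) and group means. Per the study, known miRNAs were matched to miRBase; the submitters' notes name Bowtie2. The study and the sample titles name exosomes, whereas other labels describe tissue RNA and adapters with molecular identifiers. Which library protocol applies was not given in the sources used here. Nor were the genome build and the handling of reads that match several hairpins. Reads of near-identical members may therefore be split or shared. The RPM values deposited by the authors gave totals of 24857275 to 27587059 tags. The group means deposited by the authors, as mean counts and mean RPM, were not used.

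Counts were tested with edgeR 4.0.16 (R 4.3.3; TMM, filterByExpr with a minimum of 10, robust quasi-likelihood F test, 9 libraries in 1 fit, Benjamini-Hochberg over 248 entries, threshold 0.05). Intervals are 1.96 SE on each side. They are approximate, narrower than the F test implies, and not adjusted for the number of entries. The study used DEGseq, which pools libraries, so a pooled Poisson test served as an alternative beside DESeq2 1.42.0 and limma-voom 3.58.1. Nothing beyond the study's count of mice says that libraries are independent, so p-values measure the spread between these libraries. Named with full values were members passing the filter, the 10 of highest total, and those with at least 30 counts whose groups did not overlap. The members and lists were chosen with earlier results of these data known. Hairpins and sequences are from RefSeq and GENCODE M21 (GRCm38), possibly another annotation than that of the authors.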

Additional observations from a re-analysis of the deposited data

How the results depend on the processing

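Depth limited the members: apart from miR-466i-5p, none exceeded 50 counts in a library, and 3 of 27 could be tested. Among all entries, 0 were called in each comparison by edgeR as run for the report. For the diet the pooled Poisson test called 140 of the 248 tested entries and 2 of the 3 tested members (miR-466i-5p and miR-467a-5p). For KO HFFC against flox HFFC, 1 entry was called with library tags as library sizes and 5 with DESeq2. Without a filter it was 7 of 722 entries, and with pooled Poisson 162 of 248. For KO HFFC against flox chow, 1 entry was called without scaling factors, 4 with library tags and 6 with DESeq2. Without a filter it was 10 of 722 entries, and with pooled Poisson 162 of 248. In both, leaving out single libraries gave 0 to 5 entries, with 5 without KO HFFC replicate 1. Without a filter and with pooled Poisson, 1 member was called in both KO HFFC comparisons, miR-466i-5p. Over the alternatives, its adjusted p ran from 6.36e-137 (pooled Poisson) to 0.999 against flox HFFC, and from 5.01e-95 to 0.995 against flox chow. The cause of these differences was not tested.

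The log2 ratio of the summed share, 1.83 and 1.37 in the KO HFFC comparisons, became 0.65 and -0.10 without miR-466i-5p or with only members that have a hairpin in Sfmbt2, which are the same 26 members, and 0.30 and -0.16 when KO HFFC replicates 2 and 3 were left out, an alternative chosen after seeing the data that keeps 1 KO HFFC library. Leaving out single libraries gave -0.86 to -0.02 for the diet, 1.39 to 2.24 and 0.93 to 1.8. The sign of uncalled members turned as follows, with the range over fits without a single library first. For the diet, miR-467e-5p ran from -1.73 to 0.04, the latter without flox chow replicate 1, and miR-466i-5p from -0.83 to 0.15, becoming 0.15 without flox chow replicate 2 and 0.09 without flox HFFC replicate 2. Against flox HFFC, miR-467e-5p ran from -0.17 to 1.31, was -0.25 with limma-voom and -2.75 without KO HFFC replicates 2 and 3, and miR-467a-5p ran from -0.12 to 0.52, being -0.12 and -0.04 without KO HFFC replicates 1 and 2. Against flox chow, miR-467e-5p ran from -0.81 to 0.19, being 0.19 and 0.08 without flox chow replicate 1 and KO HFFC replicate 1, and without KO HFFC replicates 2 and 3 miR-467a-5p became 0.05 and miR-466i-5p -0.03.

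Same-numbered libraries did not all deviate together: 4 of 9 pairs had a correlation over 0.1 (range -0.133 to 0.361). Among these were the pairs of replicate 3 libraries (0.22 to 0.266). Libraries of different number ranged from -0.488 to 0.411. The numbers were not taken as a pairing. With the replicate number as a block, 0 entries were called in each comparison, and miR-466i-5p stood at -0.27, 1.85 and 1.57 (edgeR adjusted p = 0.962, 0.523 and 0.451). The alternative that sums entries with identical mature sequences was not run, because no member was matched in the sequence table.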

Other observations

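The runs ACACAC or UGUGUG occurred in 11 entries outside the families among the 498 table entries matched in RefSeq. The most abundant with ACACAC was miR-574-3p, named after its values were seen. Its counts were 56, 109 and 13 for flox chow, 25, 87 and 49 for flox HFFC, and 14, 141 and 99 for KO HFFC. As CPM, KO HFFC replicates 2 and 3 were above all other libraries and KO HFFC replicate 1 was the lowest of the 9, so the groups overlapped. The log2 fold change for KO HFFC against flox HFFC was 0.66 ± 0.67 (SE, edgeR adjusted p = 0.864). Its partner arm miR-574-5p, which holds UGUGUG, had CPM of 13.1, 25.7 and 22.6 for flox chow, 34.2, 16.1 and 4.86 for flox HFFC, and 58.9, 48.5 and 23.9 for KO HFFC, with a log2 fold change of 1.31 ± 0.79 (SE, edgeR adjusted p = 0.69) against flox HFFC. The groups overlapped here too.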
